A study of Mus musculus with 12 samples.

Results

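The comparison described here was between conditionally immortalized proximal tubule (PT) cells that lack the type II TGF-β receptor TβRII and their floxed counterparts, both treated with H2O2. Its members were chosen by the sample labels alone and are 6 of the 12 libraries of the series, 3 of each genotype, compared over all genes. The cells came from male mice that carried both the Immorto-mouse transgene, a temperature-sensitive T antigen (H2ts6) under an interferon-inducible promoter, and Tgfbr2 fl/fl, the floxed gene of TβRII. They were expanded at 33 °C with IFNγ and moved to 37 °C without IFNγ for 5 days before use. TβRII flox/flox PT cells were the floxed cells without Cre, and TβRII-/- PT cells were derived from them in culture by adenoviral Cre. Both groups received H2O2 for 24 h in serum-free medium. The labels give its dose as 200 mM and the paper's methods as 200 μM. The remaining libraries, 3 of each genotype in normal culture medium without H2O2, are used only to ask whether a difference between genotypes depended on the treatment. The genotypes are a pair of cell lines, so what the missing receptor does and what else sets these lines apart cannot be told apart, and p values rest on the spread between their libraries. Nothing in the labels says that the 3 libraries of a group came from separate cultures.

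TGF-β binds TβRII, which recruits and phosphorylates the type I receptor TβRI. That receptor phosphorylates the transcription factors Smad2 and Smad3, which move to the nucleus with Smad4 and switch on genes of extracellular matrix, matrix cross-linking and feedback inhibition. In epithelia the pathway is known for loosening cell junctions and driving mesenchymal genes, and in the kidney for fibrosis. H2O2 is an oxidant that cells clear with catalase, peroxiredoxins and glutathione peroxidases, and the transcription factor Nrf2 raises many of the genes that supply them.

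Gene counts in the H2O2-treated libraries ranged from 15870155 to 17808818 for TβRII flox/flox and from 16540557 to 20857618 for TβRII-/- PT cells. The first principal component of these 6 libraries (92.7% of variance) divided the genotypes, and no library stood apart from its group. All levels below are normalized counts, that is counts scaled to a library of 17351835 counts, and serve to compare a gene between libraries, not genes with each other. Where 3 levels stand against 3, those of TβRII flox/flox PT cells come first, each in the order of replicates 1, 2 and 3. A log2 fold change may stand alone in parentheses after its gene. Fold changes are TβRII-/- over TβRII flox/flox on the log2 scale, as fitted by edgeR. A gene was called when its Benjamini-Hochberg adjusted p in edgeR's quasi-likelihood test was under 0.01 and it differed by at least 1.5-fold. The interaction is the fold change with H2O2 minus that without, on the log2 scale, called at the same limits. It is positive where the log2 fold change with H2O2 was the higher.

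Of 12971 genes tested, 3814 were called, or 29.4%: 2157 were higher in TβRII-/- PT cells (16.6%) and 1657 were lower (12.8%). Genes of epithelial junctions, glutathione transfer and antioxidant supply were among those that rose, and collagens, fibronectin, lysyl oxidases and TGF-β target genes among those that fell. At least 4-fold differences were seen in 678 higher and 331 lower genes, and at least 16-fold ones in 250 and 99. The median log2 fold change over all genes tested was 0.02. Numbers of listed genes that rose or fell are to be read against the shares called over all genes tested. In 9205 genes (71%) the libraries of the genotypes did not overlap, and 5401 of these missed the limits of the call. DESeq2 called 3730 genes, of which 3683 were also called by edgeR.

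**Figure D1:**
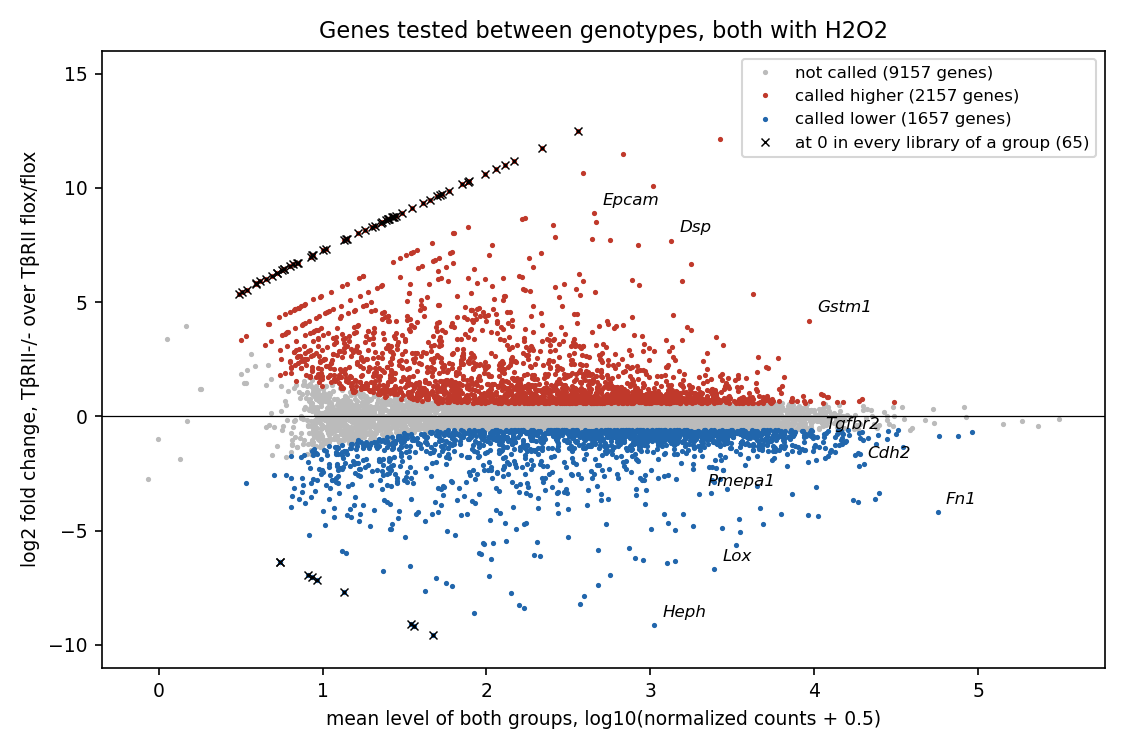
Log2 fold change between genotypes with H2O2 (vertical axis) against the mean level of both groups (log10 of normalized counts + 0.5, horizontal axis), one point for each of 12971 genes. The 2157 genes called higher are red, the 1657 called lower blue and the 9157 others grey; crosses mark 65 genes with no count in any library of a group, whose fitted fold change depends on the prior count of the fit.

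Tgfbr2 itself was counted in every library. Its levels were 13275, 13918 and 13707 against 7221, 7311 and 7116. The groups did not overlap, and the gene (chromosome 9, 116087695 to 116175363 of GRCm38.p6) fell by 0.92 on the log2 scale (SE 0.07, adjusted p = 6.62e-14). SE, an approximate standard error, is the size of the fold change or interaction divided by the square root of its test's F statistic. It can be too small where a group is near 0 counts. Without H2O2 the gene was at 8393 ± 843 and 6605 ± 220.3 (SD, n = 3; log2 fold change −0.35). Counts over a whole transcript remain where Cre has removed 1 exon, so they do not check the deletion. Tgfbr1, the gene of TβRI, fell from 1314 ± 50.3 to 826 ± 67.8 (SD, n = 3; log2 fold change −0.67), whereas Tgfbr3, the gene of the co-receptor betaglycan, rose from 1413 ± 57.8 to 2210 ± 114 (log2 fold change 0.65). Of 12 receptors and co-receptors of the TGF-β family tested, 3 rose and 5 fell (median −0.43), among them the BMP receptor genes Bmpr1a (−0.74) and Bmpr2 (−0.86) and the type I receptor gene Acvr1 (−1.10).

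Of 14 Smads and corepressors, none rose and 3 fell (21.4%, against 12.8% of all genes). Smad7, an inhibitor that TGF-β signalling induces against itself, had levels of 794, 745 and 779 against 342, 349 and 425 (log2 fold change −1.06, SE 0.09). Skil, a corepressor of Smads, had 1888, 2059 and 2109 against 754, 756 and 745 (log2 fold change −1.42). Both were low in all 3 libraries of TβRII-/- PT cells, with no overlap. The signal-carrying Smad2, Smad3 and Smad4 were not called (log2 fold changes 0.06, 0.28 and −0.03). Among 12 ligands and genes of latent TGF-β, 6 fell and 1 rose (median −0.61). The latent binding protein gene Ltbp1 was at 616, 652 and 584 against 186, 158 and 166, and Ltbp4 at 439, 549.5 and 494 against 190.2, 155 and 169. Thbs1, whose protein thrombospondin-1 can activate latent TGF-β, fell from 74540 ± 3853 to 40570 ± 1854 (log2 fold change −0.88).

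The list of TGF-β target genes moved mostly downwards. Of 19 tested, 12 fell and 4 rose (median −1.21), against 0.02 over all genes tested. Pmepa1, a feedback inhibitor of TGF-β signalling (chromosome 2, 173224458 to 173276731), was at 3535, 3999 and 3387 against 352, 356 and 324 (log2 fold change −3.40, SE 0.09, adjusted p = 1.27e-25), and Ccn2, the gene of connective tissue growth factor, at 10711, 11500.0 and 11189.9 against 2367, 2385 and 2595 (−2.19). For both genes every TβRII-/- library lay far below every TβRII flox/flox library. Not all targets fell. Acta2, the gene of smooth muscle actin, rose from 179 ± 4.96 to 636 ± 67.5 (1.83), Loxl2, a lysyl oxidase, from 6.26 ± 7.1 to 249 ± 19.3 (5.26), and Tgfbi, a secreted matrix protein gene, from 4.25 ± 1.03 to 62.2 ± 3.7 (3.83). Tagln, another actin-associated smooth muscle gene, fell (−1.47).

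BMP and activin genes went both ways, with 5 higher and 8 lower of 17. Antagonists were among the lower. Nog, the gene of the BMP antagonist noggin, was at 168, 179 and 181 against 2.77, 3.14 and 1.99, and Fst, the gene of the activin antagonist follistatin, at 26122, 27530.5 and 27787 against 8183, 8308 and 9033. Of the Id genes, which BMP signalling induces, Id2 rose from 189 ± 30.4 to 905 ± 24.4 and Id4 from 12.1 ± 0.781 to 218 ± 3.19.

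**Figure D2:**
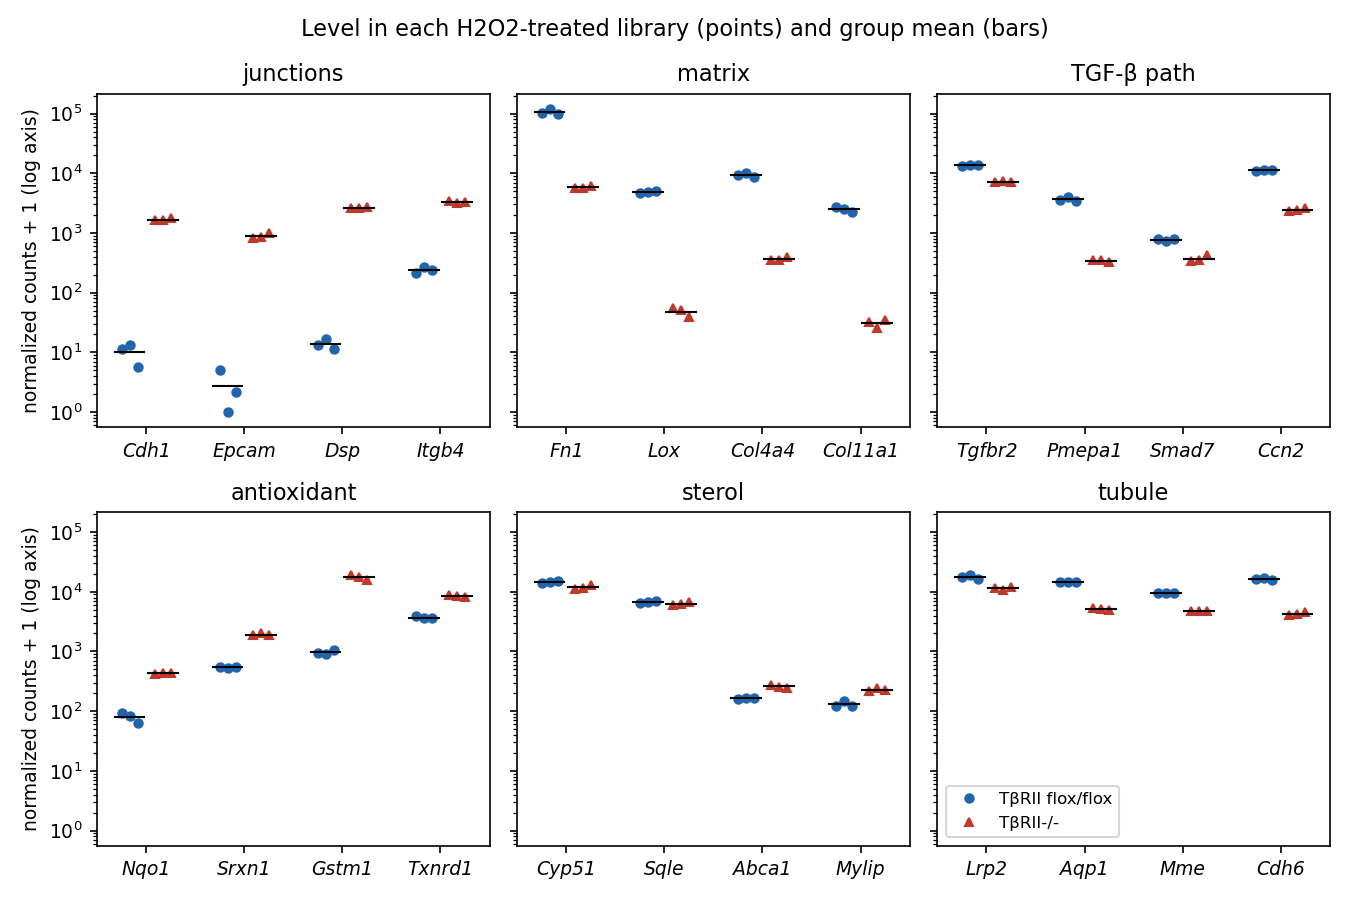
Normalized counts + 1 (log axis) of 24 genes in each H2O2-treated library, circles for TβRII flox/flox and triangles for TβRII-/- PT cells, with a bar at the mean of each group of 3. In 23 of the genes, which were picked for display, the libraries of the groups do not overlap, against 71% of all genes tested. The exception is Sqle, a sterol synthesis gene.

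Most collagen genes, the framework of the matrix, fell. Of 21 collagen genes tested, 16 fell and 1 rose (median −2.35). Col4a4 (chromosome 1, 82448419 to 82587034) and Col4a3, chains of the basement membrane collagen IV, were both well counted in TβRII flox/flox PT cells. Col4a4 was at 9416, 10194 and 8620.5 against 346, 347 and 393 (−4.70), and Col4a3 at 2355, 2755 and 2310.4 against 75.7, 102 and 117 (−4.65). In both, the libraries of the genotypes lay far apart. Col11a1, a minor fibrillar collagen (chromosome 3, 114030479 to 114220756), was at 2725, 2538 and 2208 against 31.4, 24.4 and 33.8 (log2 fold change −6.39, SE 0.13, adjusted p = 1.70e-28). Col1a1, the main chain of interstitial collagen I, was low in both groups, at 49.7, 51.6 and 69.9 against 22.1, 18.1 and 24.9. Col6a3, a chain of microfibrillar collagen VI, was the gene that rose, from 104 ± 1.69 to 660.5 ± 52.9 (2.67), whereas its partner chain genes Col6a1 and Col6a2 fell (−2.77 and −2.14).

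Among 26 matrix glycoproteins and proteoglycans, 16 fell and 5 rose (median −1.07). Fn1, the gene of fibronectin (chromosome 1, 71585473 to 71653280), was at 101717, 120871 and 98611 against 5761, 5738 and 6119.7 (log2 fold change −4.19, SE 0.10, adjusted p = 3.35e-26). Postn, the gene of periostin, and Vcan, of versican, fell by 4.96 and 4.29 on the log2 scale, and Fbln2, of fibulin-2, from 5310 ± 569 to 183 ± 9.73. Nid2, a basement membrane linker, rose from 392.1 ± 8.85 to 2350 ± 133 (2.58). Of 12 enzymes that cross-link or hydroxylate collagen, 8 fell and 3 rose. Lox, the gene of lysyl oxidase, was at 4691, 4837 and 5098 against 53.5, 50.3 and 37.8 (−6.68), and Loxl1 at 8925, 9111 and 8350.0 against 548, 484 and 591 (−4.03). Loxl2, given above, and Loxl4 of the same family went the other way, Loxl4 from 918 ± 98.5 to 1960 ± 103 (1.09). Of 19 matrix proteases and inhibitors, 11 fell, Mmp2, the gene of gelatinase A, from 19970 ± 1450 to 965 ± 60.8 (−4.37), and 3 rose, among them Plau, the gene of urokinase (1.87).

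Integrins and laminins went both ways. Of 21 tested, 8 rose and 6 fell. Itgb1, the common β1 chain, fell from 49540 ± 276 to 19720 ± 492 (−1.33), and so did its collagen- and fibronectin-binding partners Itga1 (−1.92) and Itga5 (−1.85). Itgb4, the β4 chain of hemidesmosomes, was at 212, 263 and 239.5 against 3378, 3117 and 3362 (3.79). Laminin chain genes of epithelial basement membrane rose too. Lama3 was at 84.2, 70.2 and 99.7 against 680.3, 654 and 684 (2.99), and Lamb3 at 74.1, 90.9 and 42.4 against 622, 624 and 635 (3.16).

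Of the 60 gene lists, that of epithelial genes had the most rises. Of 35 junction, keratin and epithelial regulator genes tested, 26 rose and 1 fell, with a median log2 fold change of 2.07. Cdh1, the gene of E-cadherin (chromosome 8, 106603350 to 106670247), was at 10.2, 12.4 and 4.58 against 1616, 1628 and 1768 (log2 fold change 7.49, SE 0.14, adjusted p = 1.70e-29). Epcam, an epithelial adhesion molecule gene (chromosome 17, 87635979 to 87651127), was at 4.06, 0 and 1.15 against 831, 864 and 1011, and Dsp, the gene of desmoplakin (chromosome 13, 38151294 to 38198577), at 12.2, 15.5 and 10.3 against 2569, 2666 and 2725. These genes were near 0 in TβRII flox/flox PT cells and far above it in every TβRII-/- library. Tight junction genes shared the direction, with Cldn4, the gene of claudin-4, at 1.01, 7.23 and 3.44 against 873, 818 and 927, and Ocln, the gene of occludin, at 6.07 ± 3.7 and 214 ± 33.6. Esrp1, a splicing regulator of epithelial cells, and Grhl2, a transcription factor of epithelial junctions, had no count in any of the 3 TβRII flox/flox libraries. Esrp1 was at 234, 217 and 232 in those of TβRII-/- PT cells, at least 75.8-fold higher against a floor of 3 counts per library, and Grhl2 at 121, 116 and 113, at least 39-fold higher. The keratin genes Krt8 (1.03), Krt18 (2.07) and Krt19 (2.54), whose proteins form the filaments of simple epithelia, rose as well, and Krt7 rose from 49.4 ± 10.5 to 3057 ± 113 (5.94). As a check of the cell type, the summed level of 5 epithelial markers (Cdh1, Epcam, Krt8, Krt18 and Cdh16) was 15837 to 17273 against 31370 to 32301. Most of this sum was Cdh16, at 14561, 15131 and 13658 against 22726, 23164 and 23106. Cdh1 and Epcam added almost nothing to it in TβRII flox/flox PT cells.

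Cdh6, the gene of the K-cadherin of the proximal tubule, was the member of the epithelial list that fell, from 16310 ± 662 to 4304 ± 193 (−1.92). The mesenchymal cadherins fell with it. Cdh2, the gene of N-cadherin, was at 29956, 31094 and 30405 against 6697, 6777 and 6874 (−2.17), and Cdh11 at 17659, 18000.4 and 16930.3 against 867, 885 and 914 (−4.30). Of 11 mesenchymal genes tested, 6 fell and 2 rose. The repressors of E-cadherin went both ways: Snai2 (−1.21) and Zeb2 (−2.09) fell, while Twist2 (1.38) rose. Contractile and smooth muscle genes had 3 rises and 4 falls among 12, and of 14 target genes of YAP and TAZ, coactivators of stretched or spread cells, 7 fell and none rose, among them Ccn1 (−1.60) and Axl (−1.24).

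The label of proximal tubule cells was checked against 30 markers. Of these, 10 had no count in the 6 libraries, among them Hnf4a, a transcription factor of proximal tubule, and the transporter genes Slc34a3, Slc22a6 and Slc22a8. The 11 that could be tested included 6 that fell and none that rose. Lrp2, the gene of the endocytic receptor megalin (chromosome 2, 69424335 to 69586029), was at 17789, 18780.3 and 16332 against 11369.5, 10729 and 12151 (−0.63), and Aqp1, the water channel of this segment (chromosome 6, 55336299 to 55348555), at 14654, 14783 and 14396 against 5286, 5077 and 5038 (−1.51). Both were well counted in either genotype and lower in all TβRII-/- libraries. Lrp2 fell short of 1.5-fold without TβRII-/- replicate 2 (−0.58). Summed over the list, levels were 41767 to 44511 against 22334 to 23433. Markers of other cells were checked in the same way. The sum of 11 fibroblast and pericyte markers was 2648 to 3067 against 124 to 148, with Lum and Thy1 at 0. Most of this sum was Postn, a matrix gene given above, at 2562, 2982 and 2685 against 84.9, 82.6 and 97.5. Of the 11 markers, 7 had means under 10 in both groups. Of the 4 tested, 3 fell and 1 rose, Dcn, from a mean of 2.86 to 16.6. Whether such cells had a part in the matrix results was not tested. The sum of 15 leukocyte markers was 2286 to 2415 against 3272 to 3611. It lay for the most part on Cd74 (1316 against 2357 on average) and Csf1r. Of the 15, 7 were at 0, Adgre1, Itgax and Cd3e among them. Podocyte markers (3055 to 3654 against 1467 to 1566), markers of the loop of Henle, distal tubule and collecting duct (1887 to 2004 against 740 to 763) and endothelial markers (158 to 182 against 91 to 117) were all lower in TβRII-/- PT cells in sum. In such bulk samples, fewer cells of a kind and less RNA per cell cannot be told apart.

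**Figure D3:**
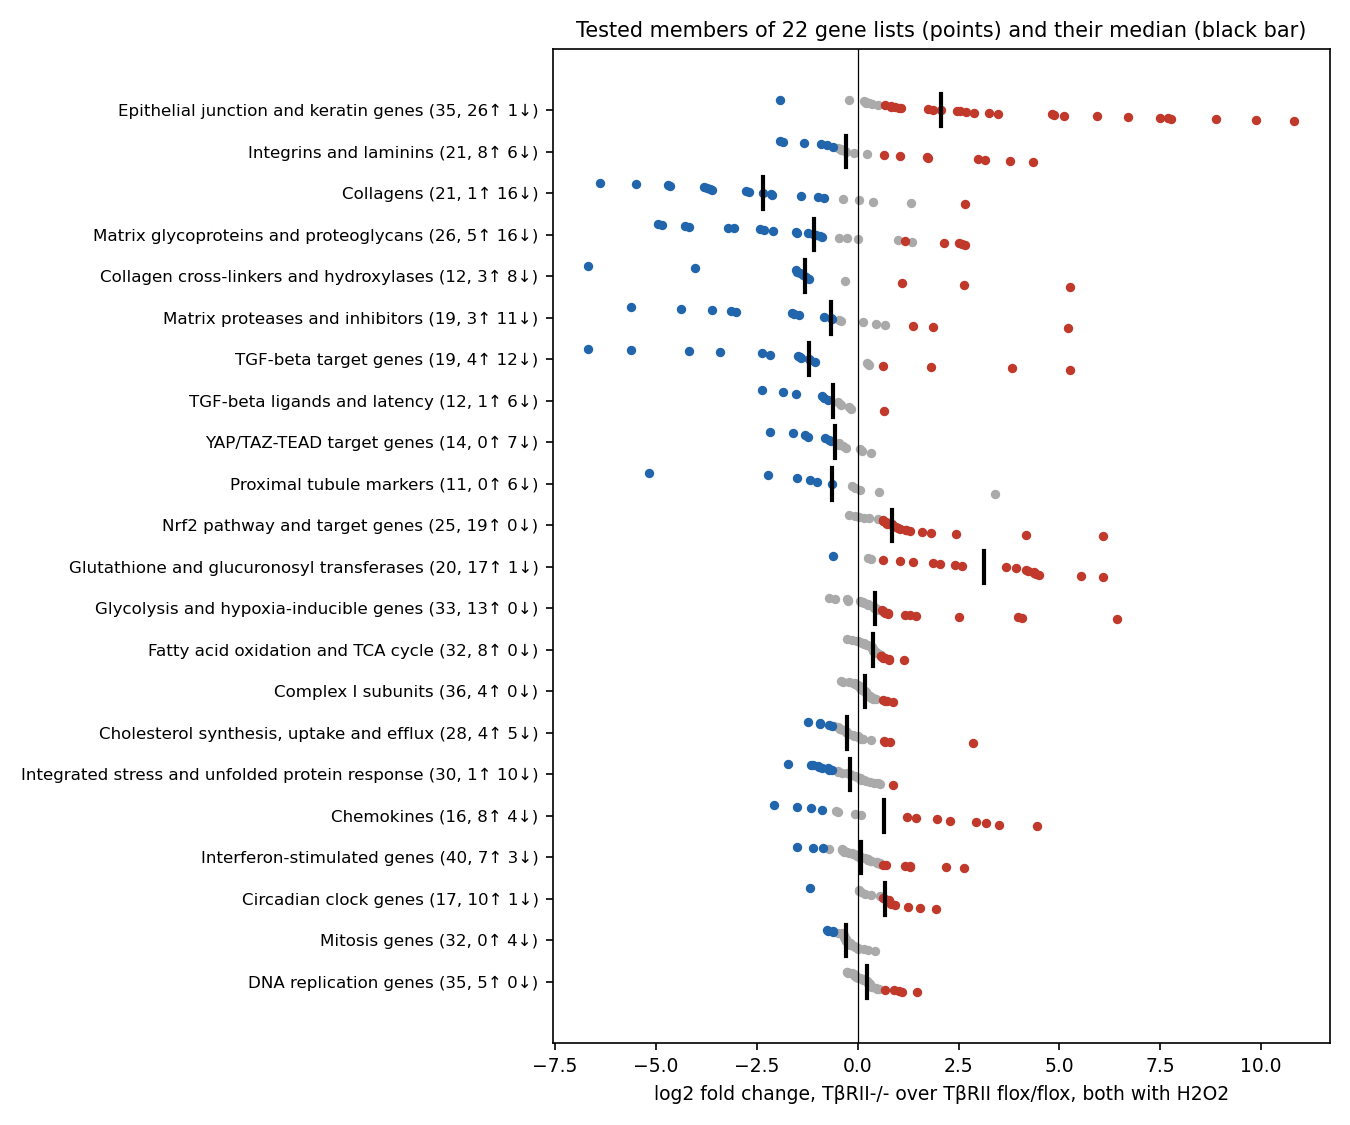
Log2 fold change between genotypes with H2O2 of every tested member of 22 gene lists, red where called higher, blue where called lower and grey where not called, with a black bar at the list's median. Beside each name stand the number tested and the numbers called higher and lower; the junction list lies mostly to the right and the collagens mostly to the left.

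The genes with the largest differences, taken by a fixed rule on level and overlap, came from several of these groups. The 10 with the largest rise were Epcam, Sult1d1, Cntn2, Cldn4, Chst1, Dsp, Cdh1, Sel1l3, Ngef and Tgm1, with log2 fold changes between 6.93 and 8.89. Sult1d1, the gene of a cytosolic sulfotransferase (chromosome 5, 87554650 to 87569006), was at 5.07, 1.03 and 1.15 against 864, 1045 and 884. Tgm1, a transglutaminase of stratified epithelia, was at 4.06, 0 and 4.58 against 390.5, 353 and 337. The 10 with the largest fall were Heph, Armcx2, Cachd1, Brinp3, Plxdc2, Lox, Col11a1, Cd200, Pcdhb16 and Pdzrn3, between −6.22 and −9.15. Heph, the gene of the iron oxidase hephaestin (chromosome X, 96455436 to 96574485), was at 2091, 2144 and 2051 against 5.54, 1.57 and 3.98 (SE 0.14, adjusted p = 1.47e-31), and Cd200, a membrane glycoprotein gene, at 2618, 2895 and 2842 against 20.3, 37.7 and 47.7. In these 20 genes the groups do not overlap by the rule that chose them. Genes with no count at all in 1 group stood outside that rule and were named after their values had been seen. There were 56 of them at 0 in TβRII flox/flox and 9 at 0 in TβRII-/- PT cells. The most counted were Mal2, which acts in apical transport (729, 704 and 739.9 in TβRII-/- PT cells, at least 242-fold higher), and the mucin gene Muc20 (417, 400.2 and 481, at least 144-fold higher), against the same floor.

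Genes of the response to oxidants also rose. Of 25 genes of the Nrf2 pathway, 19 rose and none fell, with a median log2 fold change of 0.85. Nrf2 binds the antioxidant response element in promoters and enhancers. The promoter windows of RefSeq (GRCm38.p6, 250 bases before to 50 after a gene's start) were searched for the letters TGACNNNGC on either strand, where N is any base. The letters were found in 4071 of 32851 windows of all genes (12.4%). Per gene, they were found in a window of 1648 of 9730 genes tested (16.9%) and of 8 of the 20 listed genes that had one (40%). Of these 8 genes, 7 rose, and so did 9 of the 12 without the letters. A match is a description of these letters and not a measured site. The 3 windows shown belong to the genes with the element that rose most, with the matched letters in capitals, 5′ to 3′ on the gene's own strand.
Srxn1 (chr2:152105274-152105573, plus strand): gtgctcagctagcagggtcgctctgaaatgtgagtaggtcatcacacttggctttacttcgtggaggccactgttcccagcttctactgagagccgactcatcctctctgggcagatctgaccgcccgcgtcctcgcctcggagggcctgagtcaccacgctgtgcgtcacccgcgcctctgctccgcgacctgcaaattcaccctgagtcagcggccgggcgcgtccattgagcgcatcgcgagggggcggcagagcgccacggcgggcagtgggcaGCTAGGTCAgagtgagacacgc
Nfe2l2 (chr2:75704614-75704913, minus strand): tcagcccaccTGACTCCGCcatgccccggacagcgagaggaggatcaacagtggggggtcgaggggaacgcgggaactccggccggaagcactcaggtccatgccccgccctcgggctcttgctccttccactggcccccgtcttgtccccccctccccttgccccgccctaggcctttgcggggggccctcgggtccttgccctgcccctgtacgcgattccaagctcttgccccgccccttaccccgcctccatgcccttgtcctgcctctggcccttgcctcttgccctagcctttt
Txnrd1 (chr10:82858956-82859255, plus strand): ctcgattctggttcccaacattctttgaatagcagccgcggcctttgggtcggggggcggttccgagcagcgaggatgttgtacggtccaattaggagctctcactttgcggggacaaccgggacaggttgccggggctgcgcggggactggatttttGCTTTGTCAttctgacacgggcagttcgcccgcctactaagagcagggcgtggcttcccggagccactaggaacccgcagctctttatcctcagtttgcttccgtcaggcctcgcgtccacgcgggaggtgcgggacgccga
Windows without the letters may hold the element in another form or farther away.

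Srxn1, which encodes sulfiredoxin, the enzyme that repairs overoxidized peroxiredoxins, was at 545, 529 and 555 against 1878, 2028 and 1857 (log2 fold change 1.82). Nfe2l2, the gene of Nrf2 itself, was at 2039, 1893 and 1907 against 5055, 4953 and 4465 (1.31), and Txnrd1, of thioredoxin reductase, at 3883, 3599 and 3603 against 8669, 8632 and 8057 (1.19). In all 3 genes the lowest TβRII-/- library was over the highest TβRII flox/flox library. Nqo1, a quinone reductase gene (chromosome 8, 107388225 to 107403205), was at 90.3, 82.6 and 61.9 against 416, 431 and 433 (log2 fold change 2.44, SE 0.12, adjusted p = 6.96e-18). The subunits of glutathione synthesis Gclc (0.84) and Gclm (0.96), glutathione reductase Gsr (1.59) and G6pdx (from 725 ± 30.9 to 1446 ± 109), which starts the NADPH-forming pentose phosphate pathway, rose as well. So did the ferritin heavy chain gene Fth1 (0.85), whose protein stores iron. Not every target did: Hmox1, the gene of heme oxygenase, was at 808, 853 and 788 against 836, 802 and 720.0 and was not called (−0.05), nor was the cystine transporter gene Slc7a11 (−0.21).

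Of the 60 lists, that of conjugating enzymes had the highest median. Of 20 glutathione and glucuronosyl transferases, 17 rose and 1 fell, with a median log2 fold change of 3.13, or 2.50 with the 1 member that had no count in TβRII flox/flox PT cells taken at its bound. Gstm1 (chromosome 3, 108012250 to 108017973), which joins glutathione to electrophiles, was at 942, 917 and 1039 against 19264, 17375 and 15995 (4.18), and Gsta4, which acts on lipid peroxidation products, at 2.03, 6.2 and 5.73 against 301, 325 and 341 (6.09). Genes of the μ class share near-identical sequence, and the Ugt1a genes share their last exons, so their reads could not be told apart with certainty and their counts overlap. Gsto1 was the one that fell (−0.62). Among 28 superoxide, peroxide and thiol enzymes, 9 rose and 2 fell. Gpx3, the secreted glutathione peroxidase of the kidney, rose from 7449 ± 412 to 14680 ± 693, and Gpx8, the one of the endoplasmic reticulum, fell from 1212 ± 60.9 to 495 ± 28. Of 22 sulfotransferases and phase I enzymes, 13 rose and 3 fell. Of 20 heat shock chaperones, 6 rose (30%, against 16.6% of all genes) and 1 fell, but the list's median was −0.05. Hspa1b, the inducible Hsp70 gene, rose from 63.3 ± 1.21 to 182 ± 18.8. Genes of the integrated stress response and of the unfolded protein response of the endoplasmic reticulum had more falls. Of 30 in that joint list, 10 fell and 1 rose (median −0.19). Xbp1, a transcription factor of the unfolded protein response, fell from 1116 ± 85.6 to 517 ± 31.4. The amino acid transporter gene Slc7a5 fell from 6896 ± 351 to 2082 ± 84.8.

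The study asked how TβRII bears on mitochondria under oxidative stress. Among nuclear genes of the respiratory chain, of 36 complex I subunits, 4 rose and none fell (median 0.18). The rises were a share of 11.1% against 16.6% of all genes. Of 44 subunits of complexes II to V 6 rose (13.6%) and none fell (median 0.20). Ndufb8, a subunit of the membrane arm of complex I, was at 1621, 1568 and 1449.7 against 2429, 2723 and 2504 (0.72). Of the 13 mtDNA-encoded mRNAs, 7 had enough counts to be tested, and these were not called in either direction. All 13 together took 6.0% ± 0.625 of gene counts in TβRII flox/flox and 5.7% ± 0.504 in TβRII-/- PT cells (SD, n = 3). The difference was −0.294 percentage points (two-sided exact permutation test, p = 0.6, where 3 against 3 cannot go below 0.1). Ppargc1a, the gene of the biogenesis coactivator Pgc1α (chromosome 5, 51454249 to 52115853), rose. It was at 81.2, 44.4 and 80.2 against 570.5, 601 and 578 (log2 fold change 3.09, SE 0.12, adjusted p = 1.83e-20). Tfam, the packaging and transcription factor of mtDNA, was at 494, 402 and 424 against 654, 649 and 661, a difference under the 1.5-fold limit (0.57), and Polg, of the mtDNA polymerase, at 1963, 2088 and 1986 against 1316, 1275 and 1422 (−0.59). Both lay close to the limit: Tfam passed it without TβRII flox/flox replicate 1 (0.63), and Polg missed it without TβRII-/- replicate 1 (−0.58) or replicate 2 (−0.56). Pink1, the kinase that starts mitophagy, was not called (268, 231 and 248 against 248, 295 and 282). Optn, the gene of the mitophagy receptor optineurin, rose from 189 ± 18.2 to 687 ± 22.7. It was 1 of 2 rises among 22 genes of fission, fusion and mitophagy (9.09%, against 16.6% of all genes).

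Glycolytic and hypoxia-inducible genes rose in 13 of 33 cases (39.4%, against 16.6% of all genes) and none fell (median 0.42). Pfkp, a phosphofructokinase gene, rose from 358 ± 21 to 886 ± 40.4, Hk1, of hexokinase, by a log2 fold change of 1.17, and Slc16a3, the lactate exporter gene, was at 4.06, 10.3 and 6.88 against 111, 98.3 and 131. Ldha, of lactate dehydrogenase (0.39), and Slc2a1, of the main glucose transporter (−0.23), were not called. Genes of fatty acid oxidation and the citric acid cycle also had rises only, 8 of 32 (25%, median 0.38). Among them were Pdk2 (1.15), whose kinase holds back pyruvate dehydrogenase, and the thiolase gene Acaa2 (0.79).

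Most of these differences were also present without H2O2. Of the 3814 genes called with H2O2, 2873 were called in the same direction between the untreated genotypes. That is 75.3% of the calls with H2O2 and 83.1% of the 3456 untreated calls (themselves 26.6% of genes tested), and the 2 comparisons share no library. The exception among genes called in both was Mest, an imprinted gene, which was higher in TβRII-/- PT cells when untreated and lower with H2O2. A further 940 genes were called with H2O2 only, but 911 of them had a fold change of the same sign without it, and the difference between the 2 fold changes was itself called in 31. In all, the interaction was called in 207 genes (1.6%), with 53 positive (0.409%) and 154 negative (1.19%). The difference between genotypes was larger with H2O2 in 85 of them and smaller in 122. H2O2 was given in serum-free medium and the untreated cells were in normal medium, so the effects of oxidant and serum cannot be told apart.

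**Figure D4:**
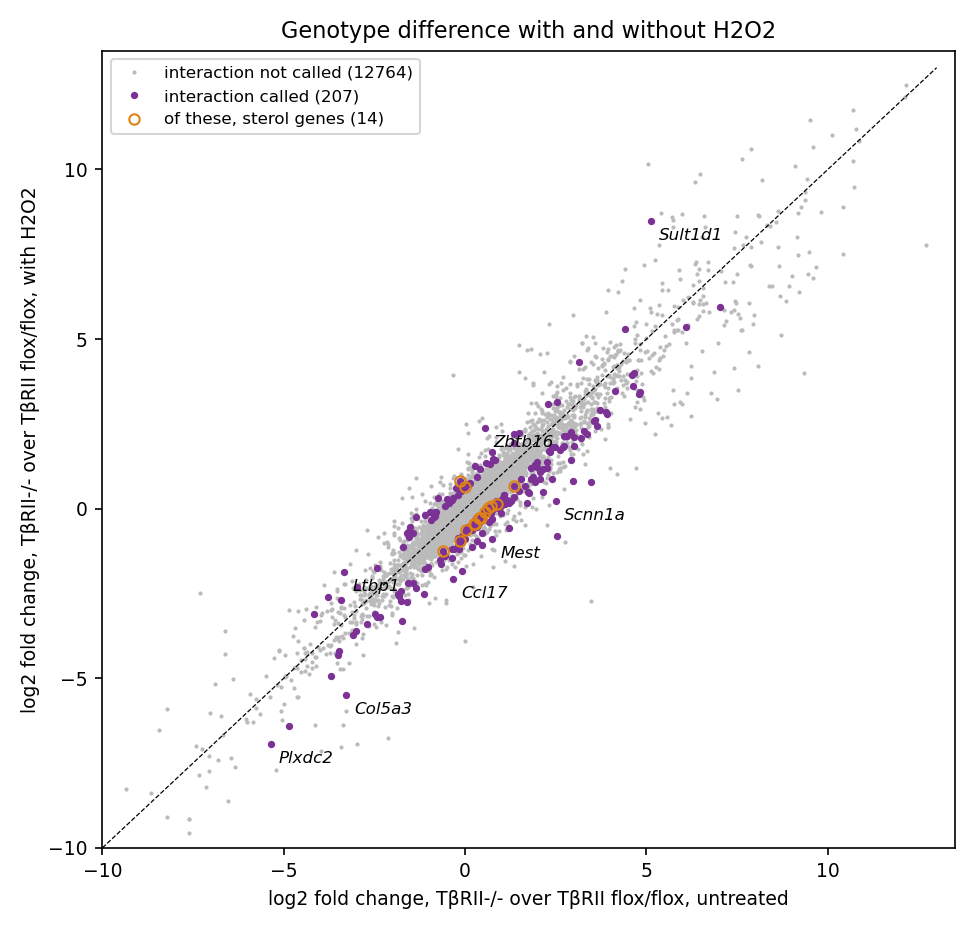
Log2 fold change between genotypes with H2O2 (vertical axis) against that between the untreated genotypes (horizontal axis), one point per gene, with the line of equal values dashed. Purple points are the 207 genes whose interaction was called, and orange rings mark the 14 of these in the cholesterol list, most of them below the line.

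Cholesterol genes were the list with the most called interactions. Sterol synthesis and uptake are switched on by the transcription factor SREBP2 when sterols are low, and the exporter Abca1 when sterols are high. Of 28 genes tested, 12 had a negative interaction, or 42.9% against 1.19% of all genes, and 2 a positive one. The sign was negative in 25 of the 28, with a median of −0.56 against 0.01 over all genes. The list's median log2 fold change between genotypes was −0.27 with H2O2 and 0.21 without. With H2O2 4 of the genes rose and 5 fell.

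Cyp51, the gene of lanosterol demethylase in cholesterol synthesis (chromosome 5, 4080674 to 4104697), was at 13968, 14649 and 15060 against 11188, 11715 and 12855 with H2O2 (log2 fold change −0.29). Without H2O2 it was at 5534 ± 474 and 7529 ± 232 (SD, n = 3; log2 fold change 0.44), and the interaction was −0.73 (SE 0.10, edgeR adjusted p = 3.37e-06). Neither difference was called by itself, and with H2O2 every TβRII flox/flox library lay over every TβRII-/- library. Sqle, of squalene epoxidase, was at 6590.5, 6690.5 and 6900.3 against 6039, 6139.8 and 6634 with H2O2, where the groups overlapped, and at 2970 ± 279.6 and 4345 ± 60.9 without (interaction −0.65). Pmvk, of a kinase early in the pathway, was at 1373, 1374 and 1289 against 2148, 2079.6 and 2183 with H2O2, and at 1015 ± 20.1 and 2560 ± 75.2 without (interaction −0.67). It was higher in TβRII-/- PT cells in both settings, and less so with H2O2. Idi1, Fdft1, Msmo1 and Nsdhl, further enzymes of the pathway, and the sterol sensor gene Insig1 had interactions between −0.75 and −0.62. The positive ones were Abca1, the cholesterol exporter, at 161, 166 and 165 against 274, 256 and 245 with H2O2 (interaction 0.65), and Mylip, a ubiquitin ligase that sterols induce, at 122.8, 146 and 121 against 221, 241 and 222 (interaction 0.94). The gene of SREBP2, Srebf2, was not called for it (−0.28, adjusted p = 0.0799). Leaving out 1 library in turn left between 11 and 15 negative interactions in the list. It took single genes under the 1.5-fold limit with an unchanged sign: Abca1 without untreated TβRII flox/flox replicate 1 (0.53), Insig1 without untreated TβRII-/- replicate 1 (−0.57), and Fdft1 without untreated TβRII-/- replicate 3 (−0.58).

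A search of promoter windows for TCACNCCAC, a form of the sterol regulatory element, on either strand found it in 1 of 18 listed genes with a window, Hmgcs1 (5.56%), in 135 of 9730 genes tested (1.39%) and in 1.24% of all windows. None of 25 genes of fatty acid and lipid synthesis had a called interaction, which is near the 1.6% of all genes. With H2O2, 3 of them rose (12%, against 16.6% of all genes) and 7 fell (28%, against 12.8%).

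Outside the sterol genes, the interactions largest in size by the fixed rule included those of Sult1d1, Zbtb16, Ltbp1 and Olfm1, all positive, and of Scnn1a, Col5a3, Ccl17, Mest and Plxdc2, all negative. Sult1d1 was at 238 ± 48 and 8301 ± 764 in the untreated genotypes, and with H2O2, at the values given above, both were lower and their ratio larger (interaction 3.36, SE 0.46, edgeR adjusted p = 6.26e-06). That ratio rests on levels near 0 in H2O2-treated TβRII flox/flox PT cells. The interaction of Sult1d1 ranged from 2.98 to 4.44 with 1 library left out. Zbtb16, a zinc finger gene known as a glucocorticoid target, was at 47.7, 41.3 and 57.3 against 234, 247 and 274 (interaction 1.81). Scnn1a, the gene of a sodium channel subunit, was at 64.9, 54.8 and 58.5 against 60.9, 70.8 and 77.6 with H2O2 and at 47.6 ± 15.3 and 272 ± 11.8 without, so that its difference was seen in the untreated cells and was not called with H2O2 (interaction −2.28). Mest was at 759, 756 and 794 against 399.7, 399 and 447 with H2O2 and at 156 ± 15.7 and 262 ± 6.24 without (interaction −1.63). Collagens had 5 negative interactions among 21 genes and no positive one: Col4a1, Col5a2, Col5a3, Col6a1 and Col11a1, with interactions between −2.21 and −0.60. Those of Col4a1 and Col5a2 fell under the 1.5-fold limit without untreated TβRII flox/flox replicate 3 (−0.53 and −0.57) or untreated TβRII-/- replicate 1 (−0.55 and −0.56), and that of Col4a1 also without H2O2-treated TβRII flox/flox replicate 2 or TβRII-/- replicate 2 (−0.57 in each). For Col5a3, levels were 375, 437 and 374 against 16.6, 5.5 and 3.98 with H2O2 and 101 ± 7.61 and 10.2 ± 1.08 without.

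Secreted and inflammatory signals differed in both directions. Of 16 chemokine genes tested, 8 rose and 4 fell. Of the neutrophil attractants, Cxcl1 was at 141, 155 and 157 against 579.7, 591 and 587 and Cxcl5 at 6.09, 9.3 and 11.5 against 186, 205 and 195. Ccl2, which attracts monocytes, was at 757, 821 and 869 against 288, 286 and 290.4 (−1.50), and Cxcl10, which attracts T cells, at 627, 663 and 619 against 259, 288 and 306 (−1.16). Every TβRII-/- library was over every TβRII flox/flox library for Cxcl1 and Cxcl5, and under it for Ccl2 and Cxcl10. Ccl17, a ligand of CCR4, was at 323, 351 and 349.5 against 64.6, 89.6 and 86.5 with H2O2 and its log2 fold change of −2.08 was −0.33 without (interaction −1.75). Csf1, the growth factor of macrophages (chromosome 3, 107741048 to 107760469), was at 17971, 19079.8 and 19272 against 6529.8, 5975 and 6449 (−1.57). Its receptor gene Csf1r was counted in these cultures and was not called (913, 942 and 839 against 847, 792 and 891). Csf2ra, the α chain of the GM-CSF receptor, rose from 77.8 ± 7.08 to 394 ± 48 (2.34). Among 26 cytokines and receptors 6 rose and 9 fell, Il1rl1, the receptor of interleukin 33, from 542 ± 68.1 to 54.3 ± 9.12.

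The sensor of cytosolic DNA and its adaptor went opposite ways. Cgas, the sensor, was at 115, 122 and 97.4 against 246, 241 and 259.6 (1.16), and Sting1, the adaptor, at 322, 329.5 and 284 against 80.3, 53.5 and 54.7 (−2.32). Of 40 interferon-stimulated genes, 7 rose (17.5%, against 16.6% of all genes) and 3 fell (7.5%, against 12.8%), with a median of 0.08. Oasl1 (2.63) and Oas3 (2.19), of the oligoadenylate synthetase family, were among the rises and Ifitm3 (−1.50) among the falls. Of 20 genes of MHC class I presentation, 2 rose (10%, against 16.6% of all genes) and none fell, with a median of −0.01. The rises were the immunoproteasome subunits Psmb8 (0.69) and Psmb9 (0.93). Of the angiopoietin-like genes, Angptl2, which encodes a secreted inflammatory factor, was at 1281, 1432 and 1242 against 728, 771 and 748 (−0.82, and −0.09 without H2O2; interaction −0.73). Angptl4 fell from 28.9 ± 4.52 to 13 ± 1.93 (−1.14, adjusted p = 0.00184) and Angptl7 rose from 24.6 ± 11.1 to 43.8 ± 7.37 (0.82, adjusted p = 0.00781). Counts of both were low and neither call held throughout: Angptl4 was not called without TβRII flox/flox replicate 2 (adjusted p = 0.0121) or TβRII-/- replicate 1 (adjusted p = 0.0126), nor was Angptl7 without TβRII flox/flox replicate 2 or 3 (adjusted p = 0.0186 and 0.11) or TβRII-/- replicate 1 or 2 (adjusted p = 0.0191 and 0.0431), nor with counts summed over transcripts (adjusted p = 0.0279). Angptl6 (0.60, adjusted p = 0.0144) and Angptl8 (0.11, adjusted p = 0.702) were not called, but Angptl6 was called higher without TβRII flox/flox replicate 2 (0.77, adjusted p = 0.0088) and with at least 10 counts asked of every library (0.61, adjusted p = 0.0082).

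Growth factor genes also went both ways. Igfbp2 and Igfbp5, which bind insulin-like growth factors, went opposite ways: Igfbp2 (chromosome 1, 72824480 to 72852474) was at 6912, 7117 and 6503 against 195, 209 and 214, and Igfbp5 (chromosome 1, 72858065 to 72874865) at 27.4, 25.8 and 41.3 against 1591, 1706 and 1734. Wnt4, a ligand of tubule formation and repair, was at 7.1, 16.5 and 5.73 against 519.7, 470.2 and 543 (5.67), and Sfrp2, a Wnt antagonist, at 381, 393 and 379 against 5.54, 8.65 and 1.99 (−6.06). Of the Notch ligands, Jag1 fell from 6152 ± 256 to 1746 ± 93.3, whereas Jag2 and Dll1 rose (2.16 and 2.56). Over the lists, 10 of 32 Egf, Fgf and Igf genes rose and 9 fell, 7 of 25 Wnt genes rose and 9 fell, and 4 of 14 Notch genes rose and 2 fell. Pdgfb and Pdgfd, growth factors of fibroblasts and pericytes, fell by 1.45 and 1.57 on the log2 scale.

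Tubular injury markers showed no common direction, with 7 rises and 4 falls among 17. Havcr1, the gene of kidney injury molecule 1, was at 72, 74.4 and 79.1 against 68.3, 76.3 and 88.5 and was not called. Lcn2, of the iron-binding injury marker NGAL, was at 13.2, 15.5 and 16 against 249, 235 and 280.4 (4.09). Vcam1, a marker of failed repair, was at 86.2, 80.6 and 83.7 against 57.2, 48.8 and 60.7 (−0.60, adjusted p = 0.00292). Its fall lay just past 1.5-fold and was not called without TβRII-/- replicate 2 (−0.50, adjusted p = 0.0263). Of 35 replication genes 5 rose (14.3%, against 16.6% of all genes), among them Pcna (1.03) and Rfc3 (1.46), and of 32 mitosis genes 4 fell (12.5%, against 12.8% of all genes), among them Mki67 (−0.72) and Cenpe (−0.75). Of 17 clock genes, 10 rose and 1 fell, with Rora at 218, 174 and 234 against 785, 816 and 785 (1.93) and the output gene Dbp at 75.1, 81.6 and 72.2 against 190.2, 183 and 172 (1.25).

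Imprinted and Hox genes, which carry a memory of parental origin and of position, went both ways. Of 16 imprinted genes, 5 rose and 7 fell, Igf2 and Peg10 with log2 fold changes of −5.56 and −4.47. Among 31 Hox genes 4 rose (12.9%, against 16.6% of all genes) and 5 fell (16.1%, against 12.8%), both near those shares. The median log2 fold change of a chromosome's genes was within 0.15 of 0 for most chromosomes, but was 0.39 on chromosome 15, 0.31 on chromosome 2, 0.27 on chromosome 5, 0.19 on chromosome 16 and −0.26 on chromosome 18. On chromosome 15 32.3% of genes were called higher, against 16.6% of all, and on chromosome 18 29.6% lower, against 12.8%. Genes named above moved both ways on these chromosomes. On chromosome 15, for example, Krt7 and Krt8 rose and Cdh6 and Itga5 fell, and on chromosome 2 Srxn1 and Nfe2l2 rose and Pmepa1 and Jag1 fell. On chromosome 5 Ppargc1a and Sult1d1 rose and Cxcl10 fell, and on chromosome 18 Cdh2 and Lox fell and Lama3 rose. With the fold of each gene taken relative to the median of its chromosome, a setting added after the data had been seen, 3536 genes were called, 1849 higher and 1687 lower. The part of such regional differences in the single results was not tested further.

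**Figure D5:**
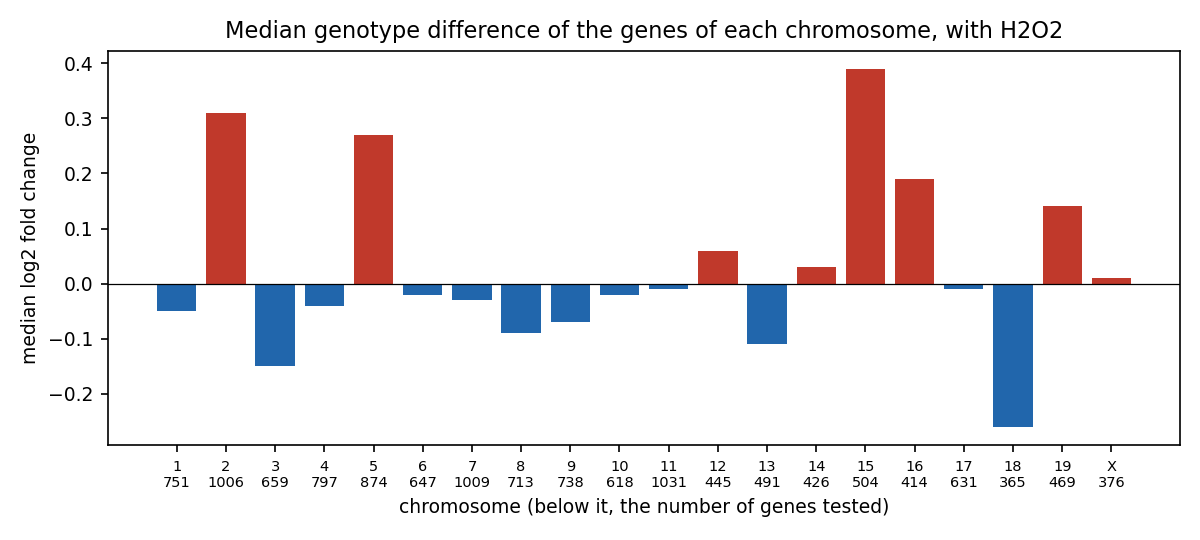
Median log2 fold change between genotypes with H2O2 of the genes tested on each chromosome (bars, from 0), with the number of genes under each name. Chromosomes 15, 2 and 5 have the highest medians (0.39, 0.31 and 0.27) and chromosome 18 the lowest (−0.26).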

How the data were processed

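The analysis began from the deposited counts of reads per transcript, which the authors made with STAR and featureCounts on GRCm38.p6 and GENCODE M23 after trimming with fastp. Tool versions are not given in the sources used here. Libraries were stranded, poly(A)-selected RNA. The 106332 transcripts of each table were joined to genes through GENCODE M39 (104820 matched, and the rest held 1.22% to 1.28% of counts). Reads of shared exons were counted for each transcript, so each gene took the counts of 1 transcript, the one most counted in all 12 libraries together. Coordinates are those of GRCm38.p6 in NCBI's gene table.

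Genes passing filterByExpr were fitted in edgeR 4.0.16 (R 4.3.3) with TMM factors (0.946 to 1.07) in a quasi-likelihood model of the means of the 4 groups, with all 12 libraries and no block, and Benjamini-Hochberg adjusted p values over all genes tested. Total gene counts, given in the report, set the precision. On simulated counts for this comparison, 186 of 200 genes changed 2-fold were recovered and 0 unchanged genes were called, over 12971 genes. The simulation gave all genes the same spread and as many rises as falls, with far fewer changed genes than were called in the data. It checks that the fit runs correctly and gives no error rate for the calls reported. The fold change of a gene with 0 counts in 1 group was bounded with a floor of 3 counts per library, which covers counting error only.

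Replicate numbers were not taken as pairs. DESeq2 1.42.0 and its size factors, other filters, a replicate block, the 6 H2O2 libraries alone, counts summed over transcripts, other limits, omission of mtDNA genes and omission of each library were alternatives. The 60 gene lists (1147 genes tested, 505 called) and the comparison were chosen with earlier results of these data known. Named genes were the 10 largest rises and falls with a mean of at least 200 normalized counts in the higher group, at least 3 counts in a library of the lower group and no overlap; up to 4 called genes in each direction per list with a mean of at least 50; genes the study names; and the 5 largest interactions of each sign. Beyond this rule, the listed keratins, further sterol enzymes, antioxidant genes, collagens with an interaction, Smad2, Smad3, Smad4, Hk1, Ldha, Slc2a1, Ocln, Mal2, Muc20 and markers were named after their values had been seen. Some genes that the rule would name are not reported here.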

Additional observations from a re-analysis of the deposited data

Results flagged for a closer look

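The difference between genotypes depended on the treatment, by the interaction term of the edgeR model, in 207 genes. Among the genes named in the report, those of sterol metabolism with a negative interaction were Idi1 (−0.75), Cyp51 (−0.73), Nsdhl (−0.72), Msmo1 (−0.70), Pmvk (−0.67), Sqle (−0.65), Insig1 (−0.64) and Fdft1 (−0.62), and those with a positive one Mylip (0.94) and Abca1 (0.65). Abca1 missed the limits with counts summed over transcripts (adjusted p = 0.0117).

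Of the matrix and cytoskeletal genes, Col5a3 (−2.21), Col11a1 (−1.54), Col6a1 (−1.17), Tagln (−1.11), Nid2 (−0.97), Fn1 (−0.70), Col5a2 (−0.63) and Col4a1 (−0.60) had negative interactions. For the collagens, Fn1 and Tagln the fall in TβRII-/- PT cells was larger with H2O2 than without, and for Nid2 the rise was smaller. Ltbp1 (1.47) had a positive one.

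Among epithelial, adhesion and transport genes, Scnn1a (−2.28), Krt7 (−1.10), Aqp1 (−0.82) and Cdh11 (−0.81) were negative. Among secreted and signalling genes, Ccl17 (−1.75), Il1rl1 (−1.55), Angptl2 (−0.73), Id2 (−0.67) and Jag2 (−0.65) were negative. Of the rest, Sult1d1 (3.36), Zbtb16 (1.81), Olfm1 (1.17) and Ppargc1a (0.80) were positive, and Mest (−1.63), Plxdc2 (−1.59) and Oas3 (−1.18) negative. The calls of 3 of these genes were not firm. Ppargc1a missed the limits with counts summed over transcripts (0.67, adjusted p = 0.0304) and, among others, without H2O2-treated TβRII flox/flox replicate 2 (0.53, adjusted p = 0.0501). Oas3 missed them without H2O2-treated TβRII flox/flox replicate 1 (−0.96, adjusted p = 0.0495), with summed counts (−1.21, adjusted p = 0.015) and without most other single libraries, at adjusted p values of 0.0107 to 0.0147. Jag2 missed them with summed counts (−0.73, adjusted p = 0.0111), without untreated TβRII flox/flox replicate 3 (−0.55) and without untreated TβRII-/- replicate 1 (−0.58).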

How the results depend on the processing

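Among named genes, none of the alternatives turned a called direction. Calls between genotypes numbered from 2939 (1571 higher, 1368 lower), with at least 10 counts asked of every library and fewer genes tested, to 3982 (2275 and 1707) without a filter. Counts summed over transcripts gave 3775, of which 3523 were also called in the counts used here. Without the limit on fold, at an adjusted p under 0.05, 8617 genes were called (4552 higher, 4065 lower), 1321 interactions and 883 genes of the lists. An unadjusted p under 0.01 gave 357 interactions in place of 207. Same-numbered libraries of the genotypes did not deviate together (correlations −0.0355, −0.0336 and −0.00488), so the numbers do not pair them. With the replicate number as a block, 3780 genes (2139 higher, 1641 lower) and 204 interactions were called, 502 listed genes, and the log2 fold change of Tgfbr2 was −0.92. Leaving out 1 library at a time gave 3659 to 3831 calls, 1950 to 2121 higher and 1586 to 1797 lower, 178 to 279 interactions, 477 to 507 listed genes, a Tgfbr2 log2 fold change of −0.97 to −0.91, and a difference in the mtDNA share of −0.534 to 0.0592 percentage points. Of 2891 fold changes of named genes under the alternatives, 2865 stayed on their side of the limits, 12 lost the call and 14 gained it. Genes called in neither fit were counted as unchanged even where their sign changed. Havcr1, for example, ranged from −0.05 to 0.13 with 1 library left out. In the lists, 135 of 1886 counts moved by over 1.5 times. The depth limits calls of genes with few counts, such as Angptl4 and Angptl7.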

Other observations

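Further lists are given by their counts, with H2O2, to be read against 16.6% higher and 12.8% lower over all genes tested. Of 22 kidney transcription factor genes, 7 were higher and 6 lower in TβRII-/- PT cells, among them the related Eya2, which rose from 7.0 ± 2.98 to 244 ± 12.5 normalized counts (SD, n = 3), and Eya4, which fell from 1588 ± 80.0 to 21.9 ± 6.06. Of 35 p53 target and apoptosis genes, 6 rose (17.1%) and none fell, and of 20 genes raised by FoxO factors or serum withdrawal, 6 rose and none fell (median log2 fold change 0.36), Trib1 by 1.77 and Gabarapl1, an autophagy gene, by 1.60. Immediate early genes had 7 rises, with Nr4a1 at 1.68, and 3 falls, with Egr1 at −1.04, among 25. Angiopoietin-like and angiogenic genes had 2 rises and 7 falls among 16, complement genes 5 and 2 among 14, with C3 rising from 64.6 ± 6.78 to 184 ± 14, and genes of lysosome and autophagy 4 and 4 among 34.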
